A study of Mus musculus with 12 samples.

Results

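The T cell receptor has no signalling tail of its own and depends on small transmembrane chains, as do many activating receptors of natural killer (NK) and myeloid cells. The genes of 7 such chains are described here, out of 25899 gene symbols in the count table: the CD3 chains Cd3e, Cd3d and Cd3g, the zeta chain Cd247, the Fc receptor gamma chain Fcer1g, and the adaptors Tyrobp (DAP12) and Hcst (DAP10). They were chosen by name from a table in which their levels were already known to differ between the groups, and all 7 passed the filter on low counts. The RNA came from sorted intraepithelial lymphocytes (IEL) of the mouse small intestine, in 12 bulk libraries that form 4 groups of 3. All hosts lacked Rag2 and so made no T or B cells, but they keep innate lymphocytes and myeloid cells. Conventional CD4 or CD8αβ T cells from lymph nodes of donors wild type for Themis had been given by vein, and IEL were sorted 1 week later. CD8αα IEL from mice given CD4 cells are called CD8αα from CD4, and those from mice given CD8αβ cells CD8αα from CD8αβ. Their companions are the cells that carried the donor's co-receptor, CD4 IEL and CD8αβ IEL. Below, CD4 progeny and CD8αβ progeny are names for the comparison of each CD8αα group with its companion. Whether the CD8αα cells descend from the donor cells was not tested. The labels do not say whether the libraries of a group came from separate mice, so p-values measure the spread between these libraries, which may be technical. In such bulk RNA, fewer cells of a type and less RNA per cell cannot be told apart.

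CD3ε pairs with CD3γ and with CD3δ, and these pairs assemble with the antigen-binding chains and a zeta dimer. CD3 and zeta chains carry immunoreceptor tyrosine-based activation motifs (ITAMs), which Lck phosphorylates and on which ZAP-70 or Syk docks. FcRγ is a close relative of zeta that carries an ITAM, serves Fc receptors and several NK receptors, and can dimerise with zeta or stand in for it in the receptor complex of some intestinal T cells. DAP12 carries an ITAM for activating NK and myeloid receptors, while DAP10 has a motif that recruits phosphoinositide 3-kinase and Grb2 below NKG2D.

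The 7 genes lie at 3 places in the mouse genome (mm10). On chromosome 9, Cd3g (ENSMUSG00000002033, chr9:44969572-44980431, minus strand) and Cd3d (ENSMUSG00000032094, chr9:44981793-44987052, plus strand) are transcribed away from each other from starts 1362 bases apart, and Cd3e (ENSMUSG00000032093, chr9:44998743-45009590, minus strand) runs towards Cd3d and ends 11691 bases from its end. On chromosome 1, Cd247 (ENSMUSG00000005763, chr1:165788681-165877276, plus strand) and Fcer1g (ENSMUSG00000058715, chr1:171229572-171234365, minus strand) lie far apart. On chromosome 7, Tyrobp (ENSMUSG00000030579, chr7:30413788-30417577, plus strand) and Hcst (ENSMUSG00000064109, chr7:30417717-30419854, minus strand) face each other with their ends 140 bases apart.

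The promoters of the divergent neighbours Cd3g and Cd3d, and of the related dimer chains Fcer1g and Cd247, are shown because the genes of each pair had opposite patterns across the groups. They are RefSeq windows of 300 bases in GRCm38.p6, from 250 bases before to 50 after the start, written 5′ to 3′ on the gene's strand. Capitals mark matches on either strand of the ETS core GGAA. They also mark matches on either strand of the RUNX motif, whose letters are TGTGGT, and no match of one overlapped a match of the other in these windows. Coordinates are chr9:44980382-44980681 (minus strand) for Cd3g, chr9:44981536-44981835 (plus) for Cd3d, chr1:171234300-171234599 (minus) for Fcer1g and chr1:165788431-165788730 (plus) for Cd247.
Cd3g: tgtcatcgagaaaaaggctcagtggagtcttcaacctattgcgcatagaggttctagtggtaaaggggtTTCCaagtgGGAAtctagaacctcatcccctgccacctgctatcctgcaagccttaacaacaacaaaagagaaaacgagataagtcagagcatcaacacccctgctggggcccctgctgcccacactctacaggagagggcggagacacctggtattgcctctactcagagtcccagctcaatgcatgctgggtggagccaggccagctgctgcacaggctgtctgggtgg
Cd3d: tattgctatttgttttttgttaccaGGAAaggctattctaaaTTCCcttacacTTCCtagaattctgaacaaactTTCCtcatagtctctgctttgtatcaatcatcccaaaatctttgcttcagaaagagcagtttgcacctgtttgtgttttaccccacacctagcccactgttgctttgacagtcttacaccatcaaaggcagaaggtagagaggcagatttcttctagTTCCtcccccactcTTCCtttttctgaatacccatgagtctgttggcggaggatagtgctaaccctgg
Fcer1g: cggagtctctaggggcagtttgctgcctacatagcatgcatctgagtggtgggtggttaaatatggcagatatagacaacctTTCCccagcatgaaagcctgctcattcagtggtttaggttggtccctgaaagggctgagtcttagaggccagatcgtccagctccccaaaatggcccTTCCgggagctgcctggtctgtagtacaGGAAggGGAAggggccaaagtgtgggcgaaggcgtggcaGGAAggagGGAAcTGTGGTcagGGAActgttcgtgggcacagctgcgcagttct
Cd247: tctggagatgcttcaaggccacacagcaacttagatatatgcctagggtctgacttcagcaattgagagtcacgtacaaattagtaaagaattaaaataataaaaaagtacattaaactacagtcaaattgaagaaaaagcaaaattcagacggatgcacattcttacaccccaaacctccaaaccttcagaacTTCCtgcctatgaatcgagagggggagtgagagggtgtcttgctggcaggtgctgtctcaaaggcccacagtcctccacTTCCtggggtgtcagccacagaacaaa
The ETS core was found 2 times in the Cd3g window, 6 times in Cd3d, 7 times in Fcer1g and 2 times in Cd247, and of 32851 promoter windows of this length 96.0% held it, with a median of 3 matches. RUNX letters stood 1 time in the Fcer1g window and in none of the other 5 windows found for the members, against 16.8% of all windows. The windows of Cd3e and Hcst held 5 ETS cores each, and TATAAA, present in 13.6% of all windows, was in none of the 6. These are letter matches only, and 6 of the 7 genes had a window in the table used.

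Library totals were 5618917 to 8874372 reads in CD8αα from CD4, 9311338 to 11068713 in CD8αα from CD8αβ, 6380477 to 8594095 in CD4 IEL, with 6098526 to 9441851 in the CD8αβ IEL libraries. The label check on co-receptor genes is fixed by the sort: Cd8a was at 2433 to 2826 and 2748 to 3251 CPM (read counts scaled to a common library size) in the CD8αα libraries from CD4 and from CD8αβ, while Cd8b1 was at 15.4 to 20.6 and 2.53 to 3.46 CPM and Cd4 at 2.56 to 3.28 and 3.55 to 9.35 CPM. Of the CD8αα libraries, 4 (CD8αα from CD4 replicates 1 and 2, CD8αα from CD8αβ replicates 1 and 3) held Xist at 373 to 645 CPM and 4 Y-linked genes summing to 0.342 to 1.03 CPM. In the other CD8αα libraries (CD8αα from CD4 replicate 3, CD8αα from CD8αβ replicate 2) the Y-linked genes summed to 363 and 321 CPM, as against 234 to 449 CPM in the 6 companion libraries. Xist was at 1.25 and 0.850 CPM in the same CD8αα libraries. In the companions it was at 0 to 36.4 CPM, highest in CD4 IEL replicate 2. Results are therefore also given with the Y-linked CD8αα libraries alone, 1 per origin, where a lone library is assumed to vary like the other groups. The 12 T cell markers listed summed to 143 to 224 CPM in CD8αα from CD4 and 146 to 177 CPM in CD8αα from CD8αβ, against 5251 to 5834 CPM in CD4 IEL and 3035 to 3810 CPM in CD8αβ IEL, with none at 0 in any group. The 15 NK and ILC1 (type 1 innate lymphoid cell) markers summed to 36235 to 49774, 42640 to 48870, 3029 to 6262 and 5057 to 12007 CPM in the same order, of which granzyme A (Gzma) made 33554 to 47198, 40325 to 46876, 1842 to 5180 and 3839 to 10876 CPM. Single NK genes differed in pattern. Eomes reached 0.468 and 0.748 CPM and Ncr1 4.27 and 1.59 CPM in the CD8αα groups from CD4 and from CD8αβ. Klrb1c, a receptor gene of mouse NK cells, rose over the companions by 3.70 and 5.37 on the log2 scale in the same order. Of the 12 T cell markers, 1 (Cd27) rose and 11 fell in CD4 progeny and 12 fell in CD8αβ progeny. Of 14 NK and ILC1 markers tested, 9 rose and 2 fell in CD4 progeny and 10 rose and 2 fell in CD8αβ progeny. Over all genes tested, 15.0% rose and 13.5% fell in CD4 progeny, and 16.1% rose and 15.1% fell in CD8αβ progeny. What part the marker shifts and the Xist split have in the results was not tested.

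The CD3 chains did not move as a block: in both CD8αα groups Cd3e, Cd3d and Cd247 were far lower than in the companions, and Cd3g was higher. Cd3e, the chain shared by both CD3 pairs, stood at 8.71, 3.21 and 12.8 CPM in CD8αα from CD4, against 505, 528 and 639 CPM in CD4 IEL. In the CD8αβ progeny it was at 22.2, 18.9 and 14.1 CPM in CD8αα from CD8αβ, against 574, 403 and 503 CPM in CD8αβ IEL. The groups did not overlap, and the CD8αα from CD4 libraries rest on 51, 28 and 82 reads. The log2 fold change was -6.11 ± 0.38 (SE) for CD8αα from CD4 over CD4 IEL and -4.74 ± 0.35 for CD8αα from CD8αβ over CD8αβ IEL, and no test is given because the gene was chosen for this difference.

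Cd3d, the partner of CD3ε in the second pair, was at 11.6, 14.2 and 28.2 CPM in CD8αα from CD4, against 248, 217 and 234 CPM in CD4 IEL. In CD8αα from CD8αβ it was at 17.9, 20.4 and 21.1 CPM, against 727, 749.5 and 611 CPM in CD8αβ IEL. Both CD8αα groups sat at about the same level although their companions differed, so the log2 fold change was -3.69 ± 0.26 in CD4 progeny and -5.13 ± 0.27 in CD8αβ progeny. Cd247, the zeta chain, was at 24.2, 13.3 and 20.6 CPM in CD8αα from CD4, against 341, 371 and 425 CPM in CD4 IEL. It was at 41.1, 32.6 and 30.7 CPM in CD8αα from CD8αβ, against 415, 381 and 427 CPM in CD8αβ IEL. Again no library of one side reached the other, with log2 fold changes of -4.30 ± 0.22 and -3.55 ± 0.21.

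Cd3g went the other way. Its level was 1902, 2133 and 2349 CPM in CD8αα from CD4, against 424, 465 and 458 CPM in CD4 IEL. It was 3295, 3780.5 and 3569.7 CPM in CD8αα from CD8αβ, against 932, 1002 and 901 CPM in CD8αβ IEL. The log2 fold changes were 2.24 ± 0.12 and 1.91 ± 0.11. Ranked by mean CPM among the 12622 genes tested, Cd3g took rank 23 in CD8αα from CD4 and rank 20 in CD8αα from CD8αβ, against rank 276 in CD4 IEL and rank 99 in CD8αβ IEL. Cd3e took ranks 9022 and 7422 in the CD8αα groups from CD4 and from CD8αβ, against ranks 203 and 267 in CD4 IEL and CD8αβ IEL.

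**Figure D1:**
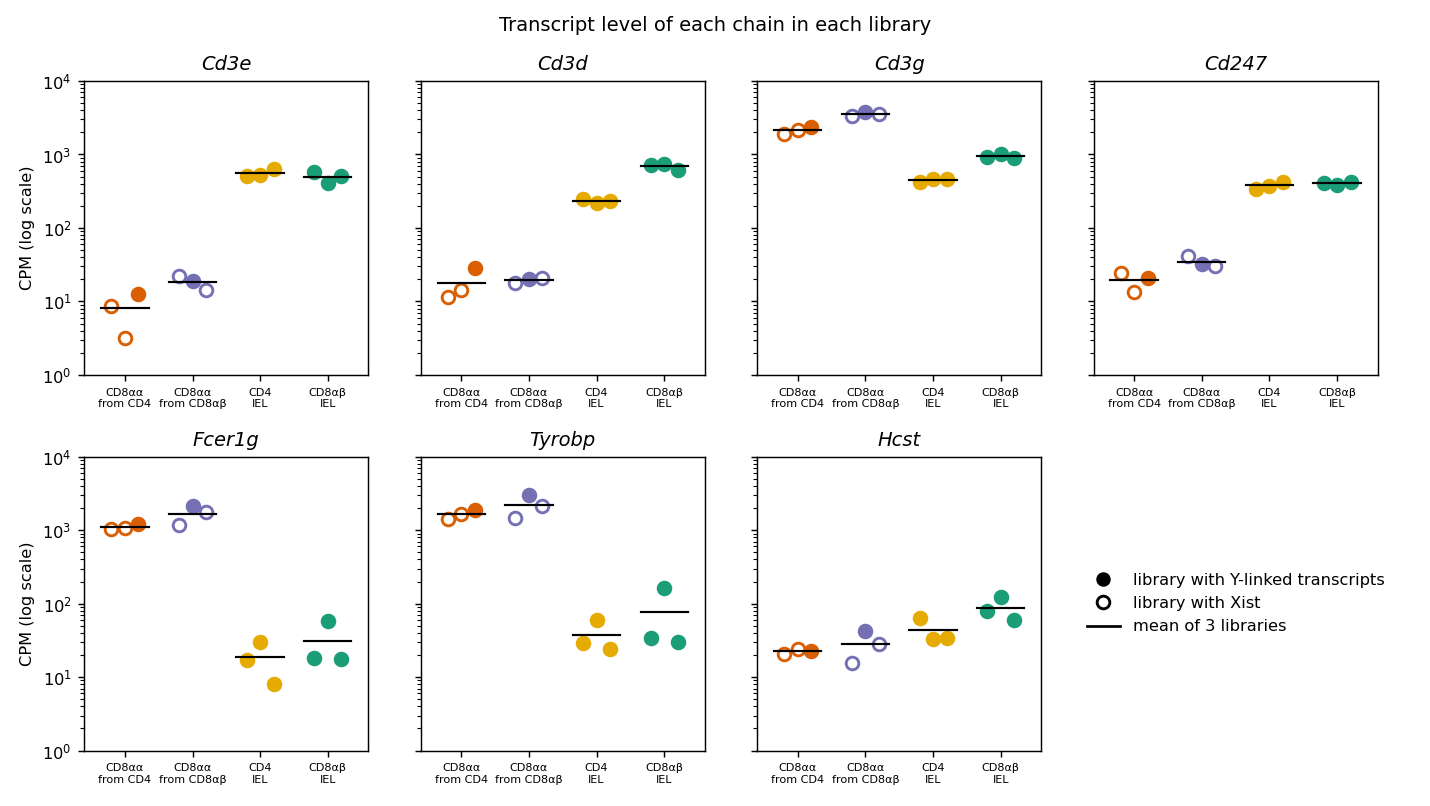
CPM (log axis) of the 7 signalling chains in each library, by group, with a line at each group's mean of 3 libraries. Open points are CD8αα libraries with Xist reads and filled points are libraries with Y-linked reads. Cd3g, Fcer1g and Tyrobp lie higher in both CD8αα groups than in their companions, and the other 4 chains lie lower.

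Per length of transcript, the make-up of the CD3 and zeta messages was therefore lopsided. Of the summed RPKM (CPM per kilobase of exon) of Cd3e, Cd3d, Cd3g and Cd247, Cd3g made 97.7% ± 0.69 in CD8αα from CD4, 98.0% ± 0.21 in those from CD8αβ, against 29.1% ± 1.63 in CD4 IEL and 33.3% ± 1.53 in CD8αβ IEL (SD, n = 3 each). In CD4 IEL the 3 CD3 genes were nearly even, with an RPKM ratio of Cd3g to Cd3e of 1.01 ± 0.11 and of Cd3g to Cd3d of 1.08 ± 0.12. The same ratios were 444 ± 335 and 73.5 ± 24.0 in CD8αα from CD4, and 250.1 ± 64.8 and 99.5 ± 5.02 in CD8αα from CD8αβ. In CD8αβ IEL they were 2.46 ± 0.57 and 0.758 ± 0.055, where Cd3d was the most abundant of the 4 per length at 44.0% ± 2.59 of the sum. Without Cd3g, the other 3 chains summed to 15.6 ± 6.12 RPKM in CD8αα from CD4, 22.0 ± 1.08 RPKM in those from CD8αβ, against 336 ± 25.5 RPKM in CD4 IEL and 581 ± 39.7 RPKM in CD8αβ IEL. With Cd3g included the sums were 667 ± 73.2, 1107 ± 73.8, 473 ± 27.9 and 869.9 ± 47.6 RPKM in that order, in which Cd3g sets most of the total in the CD8αα groups.

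Among the adaptors, Fcer1g and Tyrobp were higher in CD8αα libraries and Hcst was lower. Fcer1g, the FcRγ chain, was at 1029, 1076 and 1228 CPM in CD8αα from CD4, against 17.1, 30.5 and 7.94 CPM in CD4 IEL. It was at 1186, 2118 and 1746 CPM in CD8αα from CD8αβ, against 18.4, 58.3 and 17.8 CPM in CD8αβ IEL. The log2 fold changes were 5.90 ± 0.54 and 5.72 ± 0.53. CD8αβ IEL replicate 2 stood apart from its group in this gene and in the next, and without it the CD8αβ progeny fold change of Fcer1g was 6.54 and that of Tyrobp 6.12 on the log2 scale.

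Tyrobp, which encodes DAP12, was at 1428, 1669 and 1872 CPM in CD8αα from CD4, against 29.3, 59.6 and 24.0 CPM in CD4 IEL. It was at 1469, 3036 and 2157 CPM in CD8αα from CD8αβ, against 33.7, 165 and 30.1 CPM in CD8αβ IEL. The log2 fold changes were 5.46 ± 0.64 and 4.85 ± 0.61, again with no overlap of libraries. Hcst, which encodes DAP10, was at 20.5, 24.4 and 22.9 CPM in CD8αα from CD4, against 64.1, 32.8 and 33.8 CPM in CD4 IEL. It was at 15.4, 41.9 and 28.4 CPM in CD8αα from CD8αβ, against 80.5, 123 and 60.3 CPM in CD8αβ IEL. Its log2 fold changes, -0.95 ± 0.36 and -1.63 ± 0.36, were the smallest in size of the 7 chains in each progeny.

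Fcer1g and Cd247 encode the chains that can replace one another, and their order was inverted. The RPKM ratio of Fcer1g to Cd247 was 372 ± 118 in CD8αα from CD4, 306 ± 116 in those from CD8αβ, against 0.307 ± 0.194 in CD4 IEL and 0.486 ± 0.388 in CD8αβ IEL (SD, n = 3 each). The ratio of Tyrobp to its neighbour Hcst was 79.3 ± 7.91 and 87.9 ± 13.2 in the CD8αα groups from CD4 and from CD8αβ, against 1.08 ± 0.79 and 0.817 ± 0.555 in CD4 IEL and CD8αβ IEL. Tyrobp and Fcer1g kept a steadier ratio, 1.95 ± 0.12 in CD8αα from CD4, 1.71 ± 0.15 in those from CD8αβ, against 2.92 ± 0.91 in CD4 IEL and 2.78 ± 0.82 in CD8αβ IEL. In all, the 7 genes took 0.499% of reads in CD8αα from CD4, 0.714% in those from CD8αβ, against 0.183% in CD4 IEL and 0.269% in CD8αβ IEL.

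**Figure D2:**
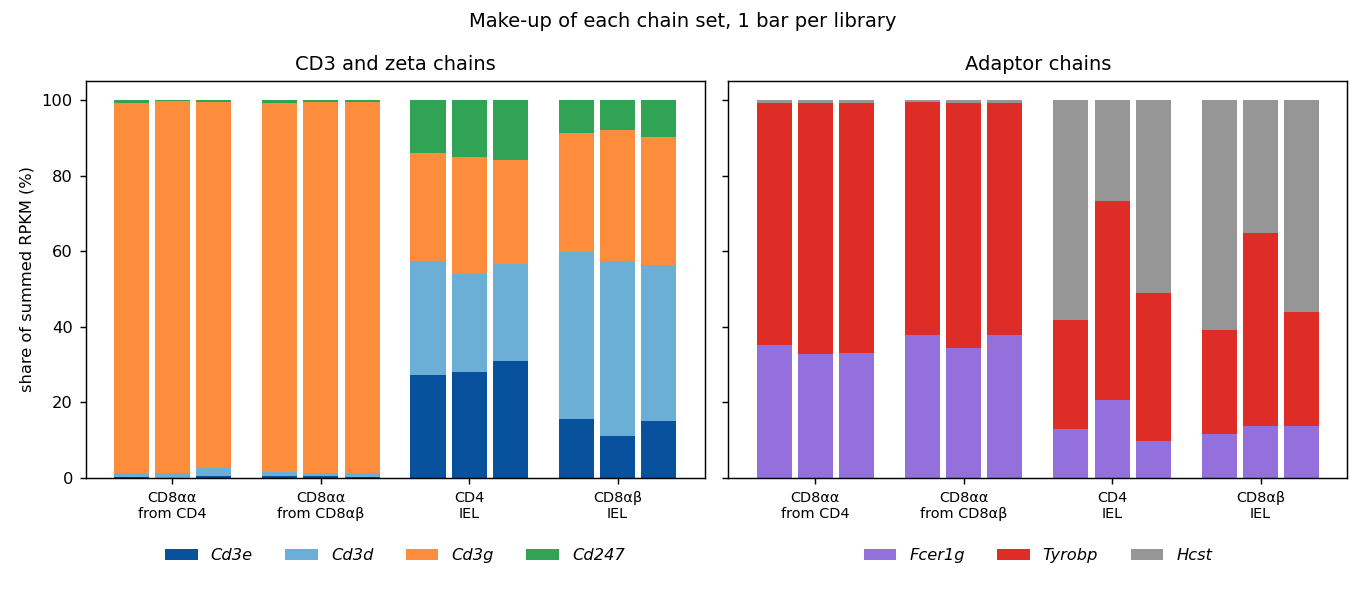
Share of summed RPKM taken by each gene in each library, in percent, for the CD3 and zeta chains (left) and the adaptor chains (right), with groups along the axis. Cd3g fills 97.7% and 98.0% of the left-hand bars on average in the CD8αα groups from CD4 and from CD8αβ, and Hcst shrinks to 0.83% and 0.72% of the right-hand bars.

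All 7 chains had CD8αα libraries that did not overlap their companions, 3 above and 4 below in each progeny. Because the choice of members used this contrast, nothing is read from that count: of all 12622 genes tested, 45.7% did not overlap in CD4 progeny (24.3% above, 21.4% below) and 43.8% in CD8αβ progeny (23.3% above, 20.5% below). With the Y-linked CD8αα libraries alone, the log2 fold changes in CD4 progeny were -5.44 for Cd3e, -3.04 for Cd3d, 2.39 for Cd3g, -4.20 for Cd247, 6.04 for Fcer1g, 5.64 for Tyrobp and -0.93 for Hcst. In CD8αβ progeny they were -4.70, -5.09, 2.00, -3.64, 6.06, 5.31 and -1.07 in the same order. Each direction was thus also present in the CD8αα library of each origin that carried Y-linked reads like its companions. No setting tried turned the direction of any of the 7 in either progeny.

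Between the CD8αα groups, all 7 fitted differences lay below 0 in CD8αα from CD4 (median over all genes -0.03), but 2 passed the test. Those of Cd3d and Hcst changed sign, up to 0.11 and 0.050, when single libraries were left out. In the quasi-likelihood test of edgeR, with p-values adjusted over all genes by Benjamini-Hochberg, Cd3g fell by 0.74 ± 0.11 (SE) on the log2 scale in CD8αα from CD4 relative to CD8αα from CD8αβ (adjusted p = 0.00326). Cd247 fell by 0.86 ± 0.20 (adjusted p = 0.0287). Of all genes tested, 4.33% were called in this comparison, 2.46% lower and 1.87% higher, and with scaling by library totals the split was 223 lower and 314 higher in place of 311 lower and 236 higher. Cd3g kept its call when any single library was left out, and Cd247 lost it when any 1 of 6 libraries was left out (adjusted p 0.0543 to 0.101: CD8αα from CD4 replicates 2 and 3, all 3 of CD8αα from CD8αβ, and CD4 IEL replicate 2). With the Y-linked libraries alone neither was called (adjusted p = 0.609 for Cd3g and 0.699 for Cd247), at fold changes of -0.69 and -0.66.

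Cd3e was also lower in all 3 CD8αα from CD4 libraries than in all 3 CD8αα from CD8αβ libraries, with a log2 fold change of -1.19 ± 0.34 that missed the threshold (adjusted p = 0.0698, edgeR). Its level there moved with CD8αα from CD4 replicate 3, the Y-linked library: without it the difference was called (adjusted p = 0.0239). Libraries of Cd3e, Cd3g and Cd247 did not overlap in this comparison, against 28.9% of all genes (16.7% lower), and those of Cd3d, Fcer1g, Tyrobp and Hcst did. For Cd3d, Fcer1g, Tyrobp and Hcst the log2 fold changes were -0.14 ± 0.25, -0.60 ± 0.43, -0.42 ± 0.52 and -0.33 ± 0.36, whose errors allow differences in either direction.

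Between the companions, Cd3d and Cd3g were lower in CD4 IEL. Cd3d fell by 1.58 ± 0.23 on the log2 scale in CD4 IEL relative to CD8αβ IEL (adjusted p = 3.77e-04, edgeR quasi-likelihood) and Cd3g fell by 1.07 ± 0.11 (adjusted p = 5.69e-05). Both were lower in 3 of 3 libraries, and both stayed called in every setting tried. Hcst fell by 1.01 ± 0.35 (adjusted p = 0.0462, edgeR), but its libraries overlapped and its call ended without any 1 of 8 libraries (adjusted p 0.0595 to 0.192) and with the replicate number as a block (adjusted p = 0.0599). Of all genes, 29.0% were called here, 16.0% lower and 12.9% higher, and 41.5% did not overlap (21.5% lower, 20.1% higher); with scaling by library totals the split was 1724 lower and 2309 higher in place of 2025 lower and 1630 higher. Cd3e and Cd247 had log2 fold changes of 0.18 ± 0.29 and -0.11 ± 0.18 (adjusted p = 0.688 and 0.701, edgeR). Fcer1g and Tyrobp had -0.78 ± 0.47 and -1.03 ± 0.55 (adjusted p = 0.227 and 0.172, edgeR), and without CD8αβ IEL replicate 2 these were 0.04 and 0.24.

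Ordered by mean CPM, Cd3g ran CD8αα from CD8αβ, CD8αα from CD4, CD8αβ IEL, CD4 IEL, with no overlap between neighbours in that order. Fcer1g and Tyrobp had the same order, but in each the CD8αα groups overlapped one another and so did the companions. Cd247 ran CD8αβ IEL, CD4 IEL, CD8αα from CD8αβ, CD8αα from CD4, in which the companions overlapped. Cd3d had this order too, but in it the CD8αα groups overlapped and the companions did not. For Cd3e CD4 IEL came first, overlapping CD8αβ IEL, and for Hcst every neighbour overlapped the next.

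**Figure D3:**
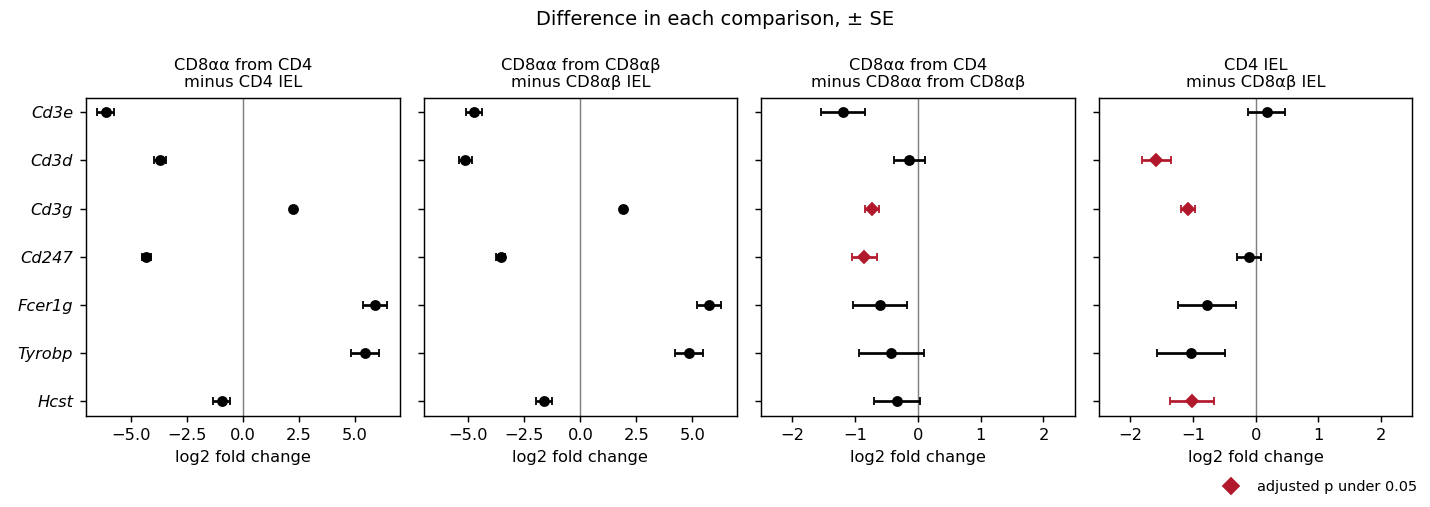
Log2 fold change of each chain in 4 comparisons (first group over second), with bars of 1 standard error; diamonds in red mark adjusted p under 0.05 and are used only in the comparisons of the CD8αα groups with each other and of the companions with each other. The changes against the companions run from -6.11 for Cd3e to 5.90 for Fcer1g in CD4 progeny, while all differences between the CD8αα groups are under 1.2 in size.

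The change from companion to CD8αα was compared between the progenies with the interaction term of the same model. Cd3d was the 1 chain called, with a change less negative by 1.44 ± 0.34 on the log2 scale in CD4 progeny than in CD8αβ progeny (adjusted p = 0.0410, edgeR), against 2.56% of all genes called (1.2% in this direction, 1.35% in the other). The call ended without any 1 of 10 libraries (adjusted p 0.0513 to 0.108), the exceptions being CD8αα from CD4 replicate 1 and CD8αβ IEL replicate 3, and with the Y-linked CD8αα libraries alone (2.05, adjusted p = 0.0670). For Cd3g the interaction was 0.34 ± 0.16 (adjusted p = 0.270) and for Fcer1g 0.18 ± 0.63 (adjusted p = 0.927, both edgeR).

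Opposite changes of close neighbours are plain at both gene clusters. At the CD3 cluster, the log2 fold changes along the chromosome were 2.24, -3.69 and -6.11 for Cd3g, Cd3d and Cd3e in CD4 progeny and 1.91, -5.13 and -4.74 in CD8αβ progeny. On either side, the nearest genes that were tested and expressed, Ube4a (a ubiquitin ligase) and Mpzl3 (a membrane protein), had fold changes of -0.06 and 0.13 in CD4 progeny and -0.04 and -0.06 in CD8αβ progeny. At the other cluster, Tyrobp and Hcst had 5.46 and -0.95, and 4.85 and -1.63, in the same order of progeny. Nfkbid, which encodes a nuclear inhibitor of NF-κB and lies beside Hcst, fell by 2.65 (adjusted p = 1.77e-06, edgeR) in CD8αα from CD4 and fell by 1.95 (adjusted p = 1.90e-05) in CD8αα from CD8αβ. Aplp1, the next tested gene, rose by 0.80 and 1.95 in the same order (adjusted p = 0.0163 and 2.84e-05, edgeR). Beyond Mpzl3, Amica1 had 0.85 and 0.26 (adjusted p = 0.00355 and 0.321, edgeR). These neighbours were picked by position. Other annotated genes overlap Cd3e (Gm48719 and Gm48720) and Cd247 (Gm16565 and Pou2f1). The sources used here do not say whether strand was used in counting. Reads of these overlapping genes could therefore not be separated from those of the chains.

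**Figure D4:**
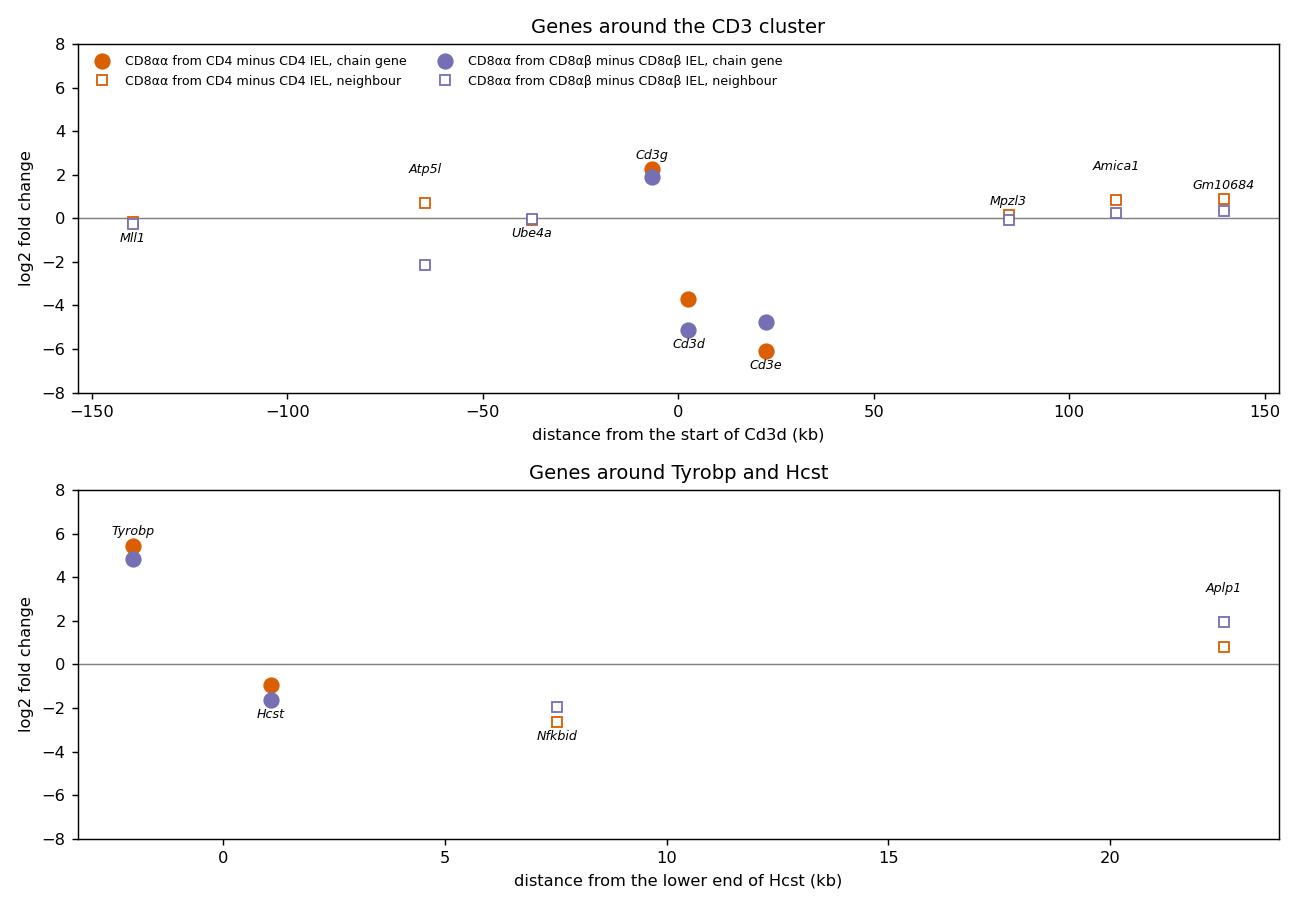
Log2 fold change of CD8αα over companion libraries against position in kilobases, in both progenies, for genes within 150 kb of the Cd3d start (top) and within 60 kb of the lower end of Hcst (bottom). Circles are chain genes and squares are other tested genes; Cd3g lies at 2.24 and Cd3d at -3.69 in CD4 progeny although their starts are 1362 bases apart.

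Of the 36 listed genes of the signalling path that runs from these chains, 10 rose and 13 fell in CD8αα from CD4 relative to CD4 IEL, and 13 rose and 11 fell in CD8αα from CD8αβ relative to CD8αβ IEL (edgeR, adjusted p under 0.05). Of all genes, 28.5% were called in CD4 progeny (15.0% rose and 13.5% fell) and 31.2% in CD8αβ progeny (16.1% rose and 15.1% fell). The list's median log2 fold change was -0.07 in CD4 progeny and -0.12 in CD8αβ progeny, against 0.02 and 0.00 over all genes, so its members moved in both directions. With the Y-linked libraries alone, 9 rose and 7 fell in CD4 progeny, and 9 rose and 6 fell in CD8αβ progeny.

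The kinases that read the ITAM differed in pattern. Syk, which in B and NK cells docks on ITAMs, rose by 5.23 ± 0.65 on the log2 scale in CD8αα from CD4 (302 to 323 CPM, against 3.59 to 14.5 CPM in CD4 IEL, adjusted p = 4.19e-05, edgeR). It rose by 4.81 ± 0.64 in CD8αα from CD8αβ (190 to 274 CPM, against 1.39 to 17.6 CPM in CD8αβ IEL). Companion replicate 2 was the highest in each progeny: without CD4 IEL replicate 2 the rise in CD4 progeny was 5.86, and without CD8αβ IEL replicate 2 that in CD8αβ progeny was 6.46. Its T cell relative Zap70, named after its values were seen like the other kinases and phosphatases not ranked by size, was at 532 to 539 CPM in CD8αα from CD4, against 591 to 954 CPM in CD4 IEL, and 545 to 620 CPM in CD8αα from CD8αβ, against 602 to 634 CPM in CD8αβ IEL. Lck, which phosphorylates the ITAM, was at 1671 to 1820 CPM in CD8αα from CD4, against 2098 to 2455 CPM in CD4 IEL, and at 1875 to 2007 CPM in CD8αα from CD8αβ, against 1938 to 2478 CPM in CD8αβ IEL. Zap70 and Lck were called in CD4 progeny at -0.46 and -0.37 (adjusted p = 0.0341 and 0.0254, edgeR) and not in CD8αβ progeny (adjusted p = 0.755 and 0.207), and both calls ended without CD8αα from CD4 replicate 3, without CD4 IEL replicate 3 and with the Y-linked libraries alone; that of Zap70 also ended without CD8αα from CD4 replicate 1 or 2.

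The scaffolds below the kinases moved in opposite directions. Lat, the scaffold of T cells, fell by 4.85 ± 0.24 in CD8αα from CD8αβ (30.5 to 42.4 CPM, against 869 to 1201 CPM in CD8αβ IEL, adjusted p = 1.04e-08, edgeR). In CD4 progeny, where it is named after its values were seen, it was at 36.4 to 56.0 CPM in CD8αα from CD4, against 749 to 1101 CPM in CD4 IEL. Lat2, its relative in NK, B and mast cells, rose by 4.93 ± 0.35 in CD8αα from CD8αβ (547 to 566 CPM, against 11 to 27.0 CPM in CD8αβ IEL, adjusted p = 2.12e-07), and in CD8αα from CD4 it was at 537 to 581 CPM, against 9.88 to 23.9 CPM in CD4 IEL. Of the phospholipases that LAT recruits, Plcg2 rose by 2.75 ± 0.21 in CD8αα from CD4 and by 4.61 ± 0.24 in CD8αα from CD8αβ (adjusted p = 6.60e-07 and 1.31e-08, edgeR), while Plcg1, named after its values were seen, had log2 fold changes of -2.61 and -2.56. Syk, Lat, Lat2 and Plcg2 kept their calls in both progenies with the Y-linked libraries alone.

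Among the called genes of this list with a mean of at least 5 CPM, Ubash3a and Sit1 changed most in both progenies. Ubash3a, which encodes a suppressor of T cell receptor signalling, fell by 9.60 ± 0.42 in CD8αα from CD4 (0 to 0.780 CPM, against 253 to 298 CPM in CD4 IEL) and fell by 9.21 ± 0.40 in CD8αα from CD8αβ (adjusted p = 6.13e-09 and 4.65e-09, edgeR). Its CD8αα from CD4 libraries held 2, 0 and 5 reads, and the first value was -10.80 without replicate 3 and -8.87 without replicate 2. Sit1, a transmembrane adaptor of lymphocytes, fell by 7.12 ± 0.67 in CD4 progeny and fell by 7.26 ± 0.65 in CD8αβ progeny (adjusted p = 3.48e-06 and 2.00e-06). It was at 0, 0 and 3.28 CPM in CD8αα from CD4, against 138 to 155 CPM in CD4 IEL, so the size of the first value rests on CD8αα from CD4 replicate 3. Without that library Sit1 was at least 700.1-fold higher in CD4 IEL, against 3 reads over the group, and without replicate 2 the log2 fold change was -6.41. Themis, which tunes receptor signalling in developing T cells and was wild type in all donors, fell by 5.60 ± 0.23 in CD8αα from CD4 (6.87 to 7.86 CPM, against 321 to 410 CPM in CD4 IEL, adjusted p = 6.03e-09). In CD8αα from CD8αβ, named after its values were seen, Themis was at 7.65 to 12.2 CPM, against 176 to 243 CPM in CD8αβ IEL. Between the CD8αα groups 1 gene of this list was called: Trat1, an adaptor that binds the zeta chain, rose by 1.92 ± 0.35 in CD8αα from CD4 relative to CD8αα from CD8αβ (adjusted p = 0.00968), and the call ended without CD8αα from CD8αβ replicate 3 (adjusted p = 0.0591) and with the Y-linked libraries alone.

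Of 18 listed receptors that pair with FcRγ, 17 were in the table and 6 had enough reads to test, so the counts that follow cover those 6. Relative to their companions 3 rose and 1 fell in CD8αα from CD4, and 6 rose in CD8αα from CD8αβ (3 rose in CD4 progeny and 5 in CD8αβ progeny with the Y-linked libraries alone, and no fall was called). Of all genes, 28.5% were called in CD4 progeny and 31.2% in CD8αβ progeny. Their median log2 fold change was 1.73 in CD4 progeny and 5.88 in CD8αβ progeny, or 5.51 in the second with 2 genes of 3 or fewer reads in a group at their bound. Fcgr3, a low-affinity IgG receptor, was at 283 to 311 CPM in CD8αα from CD4, against 1.80 to 16.2 CPM in CD4 IEL, a rise of 5.17 ± 0.48 (adjusted p = 3.27e-06, edgeR), or 6.11 without CD4 IEL replicate 2. In CD8αα from CD8αβ it was at 319 to 356 CPM, against 4.71 to 8.56 CPM in CD8αβ IEL, a rise of 5.65 ± 0.50 (adjusted p = 1.57e-06). The NKR-P1 genes Klrb1a and Klrb1c, whose products are activating lectin-like receptors of mouse NK cells, rose by 5.18 ± 0.32 and 3.70 ± 0.24 in CD8αα from CD4 and by 7.0 ± 0.35 and 5.37 ± 0.26 in CD8αα from CD8αβ (adjusted p at most 1.27e-07, edgeR). Klrb1f fell by 0.74 ± 0.22 in CD8αα from CD4 (adjusted p = 0.0219), a call that ended without any 1 of 4 libraries (adjusted p up to 0.0984, without CD8αα from CD4 replicate 3) and with the Y-linked libraries alone.

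Klrb1b, which is on the list but encodes an inhibitory NKR-P1 receptor in mice, had 0 reads in CD8αβ IEL and 6.36 to 11.5 CPM in CD8αα from CD8αβ, at least 67.1-fold higher against 3 reads over the group. Against the same floor it was at least 41.9-fold higher in CD4 IEL (3.27, 12.3 and 0.899 CPM) than in CD8αβ IEL, or at least 17.2-fold without CD4 IEL replicate 2, and Ncr1, the NK receptor NKp46, at least 40.3-fold higher. Genes for the high-affinity receptors that FcRγ serves were at 0 in CD8αα cells, where a count of 0 in a library allows up to 3 reads, or 0.271 to 0.534 CPM (counting error only): Fcer1a and Ms4a2 (IgE) had 0 reads in all 12 libraries, and Fcgr1 (IgG) had 0 reads in both CD8αα groups. The list of mast cell and basophil markers, for cells that use FcRγ with the IgE receptor, had 9 of its 13 genes at 0 in CD8αα from CD4, 7 in CD8αα from CD8αβ, and 10 in each companion group, with Fcer1a, Ms4a2, Cma1 and Gata2 at 0 in all 4. Its sum was 115 to 156, 72.0 to 182, 77.2 to 126 and 95.6 to 137 CPM in that order of groups. The 20 markers of macrophages, monocytes and dendritic cells, which express FcRγ and DAP12, summed to 1123 to 1391 CPM in CD8αα from CD4 and 755.6 to 913 CPM in CD8αα from CD8αβ, against 193 to 372 CPM in CD4 IEL and 477 to 736 CPM in CD8αβ IEL. Over all genes tested, 15.0% rose and 13.5% fell in CD4 progeny, and 16.1% rose and 15.1% fell in CD8αβ progeny. Of 19 macrophage, monocyte and dendritic cell markers tested, 2 rose and 2 fell in CD4 progeny and 2 rose and 8 fell in CD8αβ progeny. The integrin genes among them that rose were Itgax and Itgam. What part such cells have in the levels of the chains was not tested.

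Of 20 genes listed as receptors that pair with DAP12, all in the table, 10 were tested. In CD8αα from CD4 relative to CD4 IEL, 5 rose and 1 (Cd226) fell. In CD8αα from CD8αβ relative to CD8αβ IEL, 4 rose and 3 fell. Whether each gene pairs with DAP12 was not tested, and Ncr1 is also on the FcRγ list. Here and below, DAP12 receptors means all genes of the list, Cd226 and Ncr1 included. Of all genes, 15.0% rose and 13.5% fell in CD4 progeny, and 16.1% rose and 15.1% fell in CD8αβ progeny. With the Y-linked libraries alone 3 of the receptors rose and 1 fell in CD4 progeny, and 3 rose and 3 fell in CD8αβ progeny, while 2 rose there when only the compared groups were fitted. Their median log2 fold change was 1.89 in CD4 progeny and 1.19 in CD8αβ progeny. Cd300lb, an activating member of the CD300 family, rose by 5.08 ± 0.47 in CD8αα from CD4 (54.5 ± 5.06 CPM, against 1.64 ± 0.58 CPM in CD4 IEL, SD, n = 3 each) and by 4.89 ± 0.44 in CD8αα from CD8αβ (77.4 to 108 CPM, against 0.832 to 6.09 CPM in CD8αβ IEL; adjusted p = 2.76e-06 and 1.98e-06, edgeR), the second being 5.60 without CD8αβ IEL replicate 3. Cd200r4, an activating relative of the CD200 receptor, rose by 3.09 ± 0.31 in CD8αα from CD4 (499.7 to 557 CPM, against 48.5 to 89.9 CPM in CD4 IEL, adjusted p = 6.45e-06). In CD8αα from CD8αβ, named after its values were seen, Cd200r4 was at 687 to 867 CPM, against 131 to 325 CPM in CD8αβ IEL. Cd226 (DNAM-1), an activating receptor placed on this list, fell by 3.33 ± 0.23 in CD8αα from CD4 and fell by 4.97 ± 0.25 in CD8αα from CD8αβ (adjusted p = 2.40e-07 and 1.18e-08), and the difference between progenies was called (1.65 ± 0.31, adjusted p = 0.0129).

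The NKG2 genes and their partner Klrd1 encode lectin-like receptors for stress and class I-like ligands. Klrd1 (CD94) was at 314 to 497 CPM in CD8αα from CD4, against 15.1 to 33.8 CPM in CD4 IEL, and 169.6 to 261 CPM in CD8αα from CD8αβ, against 68.9 to 234 CPM in CD8αβ IEL. It rose by 3.94 ± 0.43 in CD4 progeny (adjusted p = 1.44e-05, edgeR) and had a fold change of 0.54 ± 0.38 in CD8αβ progeny (adjusted p = 0.319). Klrk1 (NKG2D), which signals through DAP10 and in mice also DAP12, was at 13.8 to 23.7 CPM in CD8αα from CD4, against 4.19 to 18.3 CPM in CD4 IEL, with overlap. It was at 2.23 to 5.86 CPM in CD8αα from CD8αβ, against 62.9 to 164 CPM in CD8αβ IEL, where it fell by 4.63 ± 0.56 (adjusted p = 2.63e-05; -4.03 without CD8αβ IEL replicate 2). Klrc2 (NKG2C) fell by 5.57 ± 0.60 in CD8αα from CD8αβ (adjusted p = 1.06e-05; -6.42 without CD8αα from CD8αβ replicate 3) and had a fold change of 0.37 ± 0.53 in CD8αα from CD4. The difference between progenies was called for Klrd1, Klrk1 and Klrc2 (interaction, adjusted p = 0.00554 for Klrd1, 0.00152 for Klrk1 and 0.00119 for Klrc2, edgeR) and for none of them with the Y-linked libraries alone (adjusted p = 0.234, 0.165 and 0.111).

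Of the 16 listed receptors and effectors of DAP10, 15 were tested, of which 6 rose and 2 fell in CD8αα from CD4 and 7 rose and 4 fell in CD8αα from CD8αβ relative to their companions (3 rose in CD4 progeny, and 4 rose and 1 fell in CD8αβ progeny, with the Y-linked libraries alone, and 2 fell in CD8αβ progeny when only the compared groups were fitted). The shares over all genes were 28.5% called in CD4 progeny and 31.2% in CD8αβ progeny. Their median log2 fold change was 0.22 in CD4 progeny and 0.37 in CD8αβ progeny. Among phosphoinositide 3-kinase subunits, the catalytic Pik3cb rose by 3.02 ± 0.38 in CD8αα from CD4 (35.1 to 41.9 CPM, against 1.85 to 7.31 CPM in CD4 IEL) and by 4.76 ± 0.44 in CD8αα from CD8αβ (adjusted p = 4.46e-05 and 2.39e-06, edgeR). The regulatory Pik3r2 rose by 3.12 ± 0.48 in CD8αα from CD8αβ (adjusted p = 2.21e-04, or 3.94 without CD8αβ IEL replicate 2) and by 1.36 ± 0.45 in CD8αα from CD4 (adjusted p = 0.0347), and the second call ended without any 1 of 5 libraries (adjusted p up to 0.129, without CD4 IEL replicate 1) and with the Y-linked libraries alone. Il2rb, the interleukin 2 and 15 receptor chain, which sits upstream of Jak3, rose by 2.28 ± 0.11 in CD8αα from CD4 (3352 to 3802 CPM, against 679 to 755 CPM in CD4 IEL, adjusted p = 1.74e-08). In CD8αα from CD8αβ, named after its values were seen, Il2rb was at 3778 to 3939 CPM, against 733 to 889 CPM in CD8αβ IEL. Jak3 itself was called between the CD8αα groups, where it rose by 0.69 ± 0.14 in CD8αα from CD4 (adjusted p = 0.0150), a call that ended without any 1 of 3 libraries (adjusted p up to 0.0753, without CD8αα from CD8αβ replicate 2) and with the Y-linked libraries alone.

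**Figure D5:**
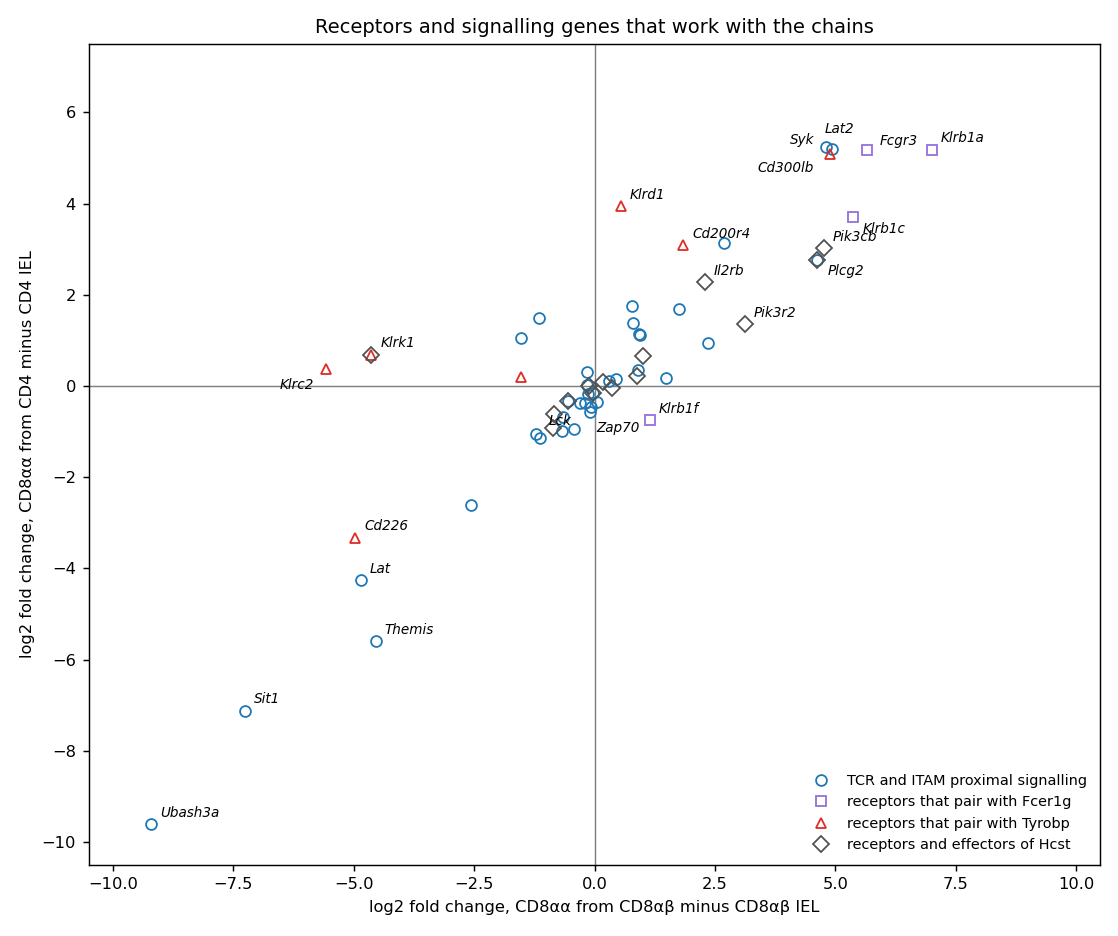
Log2 fold change of CD8αα over companion libraries for each tested gene of the 4 lists of signalling partners, with CD8αβ progeny on the x axis and CD4 progeny on the y axis; genes with 0 reads in a group are left out. Most genes lie near the diagonal, while Klrc2 and Klrk1 lie far to the left of it (-5.57 and -4.63 on x, 0.37 and 0.69 on y). The axes use different libraries.

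Between the companions, receptors and partners also differed. Of the 36 signalling genes 7 rose and 7 fell in CD4 IEL relative to CD8αβ IEL, and of the 6 FcRγ receptors 4 rose. Of the 10 DAP12 receptors 1 (Ncr1, also on the FcRγ list) rose and 5 fell, and of the 15 DAP10 genes 4 rose and 1 fell. Over all genes, 29.0% were called in either direction. When only the compared groups were fitted, 3 of the signalling genes fell, 2 FcRγ receptors rose and 2 DAP10 genes rose. Named by the same rule, Plcg2 rose by 2.05 (adjusted p = 5.69e-05), Vav3, a guanine exchange factor, by 1.69 (adjusted p = 6.74e-04), Trat1 by 1.76 (adjusted p = 0.00248) and Klrb1f by 2.85 (adjusted p = 1.58e-05, all edgeR). Klrc2 fell by 3.63 (adjusted p = 3.61e-04), Klrk1 fell by 3.15 (adjusted p = 7.08e-04) and Klrd1 fell by 2.49 (adjusted p = 8.10e-04), of which Klrk1 and Klrd1 had -2.55 and -1.86 without CD8αβ IEL replicate 2. The medians of the lists were 0.08, 1.91, -2.01 (-2.26 with few-read genes at their bound) and 0.20 (0.26 at the bound) in that order, against 0.01 over all genes. Blnk, a B cell adaptor, had a call (-2.56, adjusted p = 0.0270) that ended without CD8αβ IEL replicate 2 (-0.94, adjusted p = 0.353), without CD4 IEL replicate 2 or 3 (adjusted p = 0.0927 and 0.0869), when only the compared groups were fitted (0.0643) and with the Y-linked CD8αα libraries alone (0.0743). Without CD4 IEL replicate 1 it was -3.39 and still called.

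Between the CD8αα groups, where 4.33% of all genes were called, the partners called were 1 of 36 signalling genes, 1 of 6 FcRγ receptors (Klrb1f, 0.96 ± 0.22, adjusted p = 0.0299), 3 of 10 DAP12 receptors and 2 of 15 DAP10 genes, all of them higher in CD8αα from CD4 (edgeR). Lower ones were called in other fits: 2 signalling genes, 2 FcRγ receptors and 2 DAP12 receptors when only the compared groups were fitted, and 2 signalling genes and 2 FcRγ receptors by DESeq2. The call of Klrb1f ended without any 1 of 5 libraries (adjusted p 0.0566 to 0.140: CD8αα from CD4 replicates 1 and 2 and all 3 of CD8αα from CD8αβ). The lists' medians were 0.00, -0.46, 0.96 and 0.19 in that order, against -0.03 over all genes. Cd226 rose by 1.58 ± 0.23 (adjusted p = 0.00266) and kept its call when any single library was left out. Klrk1 rose by 2.17 ± 0.53 (adjusted p = 0.0354), a call that ended without any 1 of 7 libraries (adjusted p 0.0509 to 0.152). None of these calls was made with the Y-linked libraries alone, where each origin has 1 library.

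The chains also followed one another from library to library to different degrees. Across the 12 libraries, which share 4 group means, Pearson's r of log2 CPM was 0.996 between Fcer1g and Tyrobp, and it was 0.941 over the 6 CD8αα libraries alone and 0.939 over the 6 companions alone. Cd3e and Cd247 had 0.996 over 12, 0.932 over the CD8αα libraries and 0.434 over the companions. Cd3d and Cd3g had -0.780 over 12, 0.501 over the CD8αα libraries and 0.988 over the companions. Tyrobp and Hcst had -0.617, 0.935 and 0.551 in that order. Each set of 6 libraries joins groups of different mean, and Cd3d and Cd3g were both lower in CD4 IEL than in CD8αβ IEL. Within CD4 IEL, replicate 1 had the highest Cd3d and the lowest Cd3g (248 and 424 CPM). Replicate 2 there had the lowest Cd3d and the highest Cd3g (217 and 465 CPM). Within CD8αβ IEL, replicate 2 was highest and replicate 3 lowest in both genes. The correlations describe the libraries at hand, which differ in depth and group, and carry no test.

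The genes most alike to 3 of the chains were looked for among 6002 genes by Pearson's r of log2 CPM over the 12 libraries. Tcf7 (0.990) and Bcl11b (0.985), transcription factors of the T cell lineage, Tnf (0.988), a cytokine, and Clec2i (0.987), a lectin-like NK receptor ligand, were most like Cd3e. Cst7 (0.993), a cystatin of cytotoxic granules, Fbxo30 (0.990), Tmbim4 (0.990) and Rgs2 (0.987), a regulator of G protein signalling, were most like Cd3g. Snapin (0.996), Sh2d1b1 (0.993), which encodes the SAP-family adaptor EAT-2 of NK cells, Lat2 (0.992) and Tcn2 (0.992), a cobalamin carrier, were most like Fcer1g. As an example of the range, Sh2d1b1 was at 126 to 133 CPM in CD8αα from CD4 and 124 to 159 CPM in CD8αα from CD8αβ, against 0 to 4.70 CPM in CD4 IEL and 0.494 to 6.76 CPM in CD8αβ IEL. Snapin was at 136 to 150 and 143 to 159 CPM in the CD8αα groups from CD4 and from CD8αβ. In CD4 IEL and CD8αβ IEL it was at 56.6 to 68.9 and 58.6 to 81.9 CPM. Correlation over libraries that share group means does not measure the size of a change.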

How the data were processed

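RNA from 12 sorted IEL libraries was purified with an RNeasy kit, per the labels' protocols. Per-gene read counts, whole numbers without normalisation, are what the authors deposited. Reads were aligned with HISAT2 2.1.0 to mm10, per the submitters' processing notes; the sources used here name neither the counting program, nor its annotation, nor its use of strand. Of rows with the same symbol only the most abundant was used, which dropped 66 of 25965 rows with 0.0202% of reads. Identifiers of 24986 rows were found in GENCODE M21. Constant-region rows of the T cell receptor are not analysed here, and 13 rows of mitochondrial genes held 0 reads.

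Genes were kept by filterByExpr (minimum count 10, minimum total 15), which left 12622, scaled by TMM and tested two-sided with edgeR 4.0.16 (R 4.3.3, limma 3.58.1) by the quasi-likelihood test, all 12 libraries in 1 model, Benjamini-Hochberg adjustment over all genes and calls under 0.05. DESeq2 1.42.0 was an alternative. The standard error is the log2 fold change over the root of F. CPM uses TMM-scaled totals, and RPKM the union exon length. The code was tested on simulated data. The chains and all gene lists were chosen with earlier results of these data known, so the chains have no test between CD8αα and companion libraries. Named partner genes are up to 4 called genes per list and comparison with the largest fold change and a mean of at least 5 CPM in the higher group, and the 4 genes most alike to Cd3e, Cd3g and Fcer1g. Symbols follow the table, in which Themis2 is BC013712. A planned motif search in the proteins was not run.

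Between libraries of a group, chi-square per gene was 11.4 to 60.2, so none agreed within sampling noise. Same-numbered libraries of CD8αα from CD8αβ and CD8αβ IEL deviated together (correlations 0.130 to 0.376 over 3 pairs; the labels do not say why), and with the number as a block 3941 genes were called in place of 3939.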

Additional observations from a re-analysis of the deposited data

Results flagged for a closer look

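Each result here was picked because the change from companion to CD8αα differed between the progenies by the interaction test (edgeR quasi-likelihood, adjusted p under 0.05); differences are CD4 progeny minus CD8αβ progeny on the log2 scale, and the progenies share no library. Among the chains this was Cd3d, with a difference of 1.44 ± 0.34 (SE).

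Among the signalling partners, Plcg2 differed by -1.86 ± 0.29 (adjusted p = 0.00383), with changes of 2.75 in CD4 progeny and 4.61 in CD8αβ progeny. Pag1, a membrane adaptor that recruits the kinase Csk, differed by -1.30 ± 0.29 (adjusted p = 0.0327), with 0.19 and 1.49, and the call ended without any 1 of 8 libraries (adjusted p 0.0571 to 0.0924). BC013712 (Themis2), the relative of Themis in B and myeloid cells, differed by 0.99 ± 0.22 (adjusted p = 0.0314), with 1.76 and 0.77, and its call ended without any 1 of 9 libraries (adjusted p 0.0513 to 0.0924).

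Among the FcRγ receptors, Klrb1f differed by -1.88 ± 0.32 (adjusted p = 0.00739), with -0.74 in CD4 progeny and 1.14 in CD8αβ progeny, and Klrb1c by -1.67 ± 0.32 (adjusted p = 0.0148), with 3.70 and 5.37. Klrb1b had a fitted difference of -9.41 (adjusted p = 0.0203), which is no measure of size because CD8αβ IEL had 0 reads, and its call ended without CD8αα from CD4 replicate 2 or 3 (adjusted p = 0.0522 and 0.0599). On the DAP12 list, Klrc2 differed by 5.94 ± 0.79 (adjusted p = 0.00119), Klrk1 by 5.32 ± 0.73 (adjusted p = 0.00152) and Klrd1 by 3.40 ± 0.56 (adjusted p = 0.00554). Cd226, placed on the same list, differed by 1.65 ± 0.31 (adjusted p = 0.0129). Leaving out 1 library moved Klrc2 to 6.79 (without CD8αα from CD8αβ replicate 3), Klrk1 to 5.92 (without CD4 IEL replicate 2) and 4.72 (without CD8αβ IEL replicate 2) and Klrd1 to 2.76 (without CD8αβ IEL replicate 2), all still called. With the Y-linked CD8αα libraries alone, none of these 11 differences was called, at adjusted p of 0.0670 for Cd3d and 0.111 to 0.620 for the other 10.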

How the results depend on the processing

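With the Y-linked CD8αα libraries alone, called genes were 630 higher and 650 lower in CD8αα from CD4 against CD4 IEL, 692 and 729 in CD8αα from CD8αβ against CD8αβ IEL, 1 and 0 between the CD8αα groups, 1017 higher between companions, and 7 and 6 in the interaction, in place of 1898 and 1699, 2030 and 1909, 236 and 311, 1630, and 152 and 171. Fitting only the compared groups gave 442 and 517 between the CD8αα groups and 1061 higher between companions, and DESeq2 gave 488 and 548 between the CD8αα groups and 414 and 392 in the interaction. Leaving out 1 library gave 1447 to 2067 higher and 1321 to 1846 lower in CD4 progeny, 1625 to 2144 and 1487 to 2027 in CD8αβ progeny, 73 to 317 and 83 to 397 between the CD8αα groups, 1092 to 1669 and 1555 to 2095 between companions, and 56 to 189 and 89 to 186 in the interaction. The labels pair no libraries; with the replicate number as a block (replicate block) 3674 genes were called in CD4 progeny, 663 between the CD8αα groups, 3814 between companions and 356 in the interaction, in place of 3597, 547, 3655 and 323; same-numbered correlations were 0.00591 to 0.0629, -0.0336 to 0.126 and 0.00236 to 0.0844 in the first 3 of these. The block ended the companion calls of Hcst (adjusted p = 0.0599) and Blnk (0.0754) and made one for Cd3e between the CD8αα groups (adjusted p = 0.0494, edgeR); it changed no other call of the chains. Cd3e was also called there with no filter (adjusted p = 0.0424) and by DESeq2 (0.00759), and Cd247 was not with library totals (0.0550) or only the compared groups (0.0645). Library totals moved the median of all genes between companions to 0.13, against 0.01 with TMM. With the longest transcript as gene length, shares in CD8αα from CD4, CD8αα from CD8αβ, CD4 IEL and CD8αβ IEL that moved by over 1 SD were 32.7% in CD4 IEL and 17.1% in CD8αβ IEL for Cd3e; 0.858% in CD8αα from CD8αβ, 21.6% in CD4 IEL and 37.9% in CD8αβ IEL for Cd3d; 26.5% in CD4 IEL for Cd3g; 0.775%, 0.831%, 19.2% and 12.2% for Cd247; and, in CD8αα from CD4 and from CD8αβ, 36.6% and 39.8% for Fcer1g, 62.2% and 59.2% for Tyrobp, and 1.15% and 1.0% for Hcst. With Y-linked CD8αα libraries alone they were 2.1% Cd3d, 97.0% Cd3g and 0.749% Hcst in CD8αα from CD4, and 34.5% Fcer1g and 64.7% Tyrobp in CD8αα from CD8αβ. Uncalled differences that changed sign were, between the CD8αα groups, Cd3d (0.47 with Y-linked libraries alone, 0.11 and 0.01 without CD8αα from CD4 replicates 1 and 2; -0.61 to 0.11 over single libraries left out) and Hcst (0.050 without CD8αα from CD8αβ replicate 2; -0.63 to 0.050); between companions, Cd247 (0.012 with library totals), Fcer1g (0.038; -1.33 to 0.038) and Tyrobp (0.24; -1.53 to 0.24), both without CD8αβ IEL replicate 2; and in the interaction, Fcer1g (-0.02 without CD8αα from CD8αβ replicate 1, -0.18 without CD4 IEL replicate 3, -0.64 without CD8αβ IEL replicate 2, -0.017 with Y-linked libraries alone; -0.64 to 0.76) and Tyrobp (-0.66 without CD8αβ IEL replicate 2; -0.66 to 1.14). The cause of these changes was not tested. In all, 607 of the chains' recomputed fold changes stayed on the same side, 33 lost and 5 gained a call, 12 changed sign and 1 moved by over 1 SD (Cd3d in CD4 progeny). The partners' recomputed fold changes were counted only in the comparisons for which the rule named them. Of these, 1029 stayed on the same side, 81 lost a call and none changed sign under the settings run. In other comparisons signs did change: between the companions, Syk ran from -0.58 to 1.72 and Lat2 from -0.77 to 0.15. Few reads limit Cd3e in CD8αα from CD4 most, at 28 to 82 reads a library.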
